A study of Canis lupus familiaris with 222 samples.

Results

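ENSCAFG00000009558 is a single Ensembl dog gene identifier, 1 of 24580 in a table of expression values of canine mammary tumors (CMTs) and normal mammary tissue. It was selected on its uneven FPKM values among the 18 tumors of the expression cluster NMF3, where the median was 41.8 FPKM and the mean was 480.5 FPKM. FPKM is a level in which the fragments assigned to a gene are scaled to its transcript length and to the size of the library. Its levels in NMF3 tumors are therefore given as a description, and the comparisons tested here were made in tumors of the other clusters. The table holds identifiers without gene names, so what this gene encodes and where it lies are not analysed here.

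All libraries came from female dogs with mammary tumors, removed by surgery at 2 to 19 years of age (median 12 years), and hold poly(A)-enriched RNA of whole pieces of tissue. They comprise 158 tumors and 64 samples of normal mammary tissue from dogs whose tumor was also sequenced, with 1 tumor library per dog. Histology, grade, cluster, class and follow-up came from the clinical table of the study, which lists every tumor but CMT-351. Mapped reads ranged from 52007828 to 147634076 in these tumors (median 68627577) and from 52428301 to 109525495 in normal tissues (median 69533145). The share of mapped reads ranged from 66.6% to 93.2% in tumors and from 85.9% to 92.7% in normal tissues. The read count behind a single FPKM value is not known.

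CMTs are named after the cells they hold. Simple tumors are made of a single epithelial cell type, complex tumors hold both luminal epithelial and myoepithelial cells, and mixed tumors also hold cartilage or bone. Carcinosarcomas combine malignant epithelial and mesenchymal parts, osteosarcomas form bone matrix, fibrosarcomas are tumors of fibroblast-like cells, and the spindle cell carcinoma was labelled as a malignant myoepithelioma. The clusters NMF1 to NMF5 were made by the authors with non-negative matrix factorization of these same expression values. The NMF3 signature was annotated by them with epithelial-mesenchymal transition, the program by which epithelial cells take on mesenchymal features. The basal and non-basal classes were made from PAM50 genes, a panel used to class human breast cancers, measured in the same tumors.

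ENSCAFG00000009558 was low in most tumors and among the most abundant transcripts in a few. Over the tumors of the clinical table its level ranged from 0 to 1648 FPKM with a median of 0.572 FPKM (mean 61.2 ± 258, SD). It was listed at 0 in 18 tumors, it was above 1 FPKM in 67, above 10 FPKM in 23 and above 100 FPKM in 10. The 7 highest tumors held 85.6% of the FPKM summed over all of these tumors, the 10 highest held 94.0%, and the NMF3 tumors held 90.0%. Within their own library, the 10 tumors above 100 FPKM placed this gene at or above the percentile 97.8 of all identifiers, and at most at the percentile 99.9. The median percentile was 89.5 in NMF3 tumors, 45.0 in the other tumors and 37.8 in normal tissues. In bulk tissue, fewer cells of a type and less RNA per cell cannot be told apart.

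**Figure D1:**
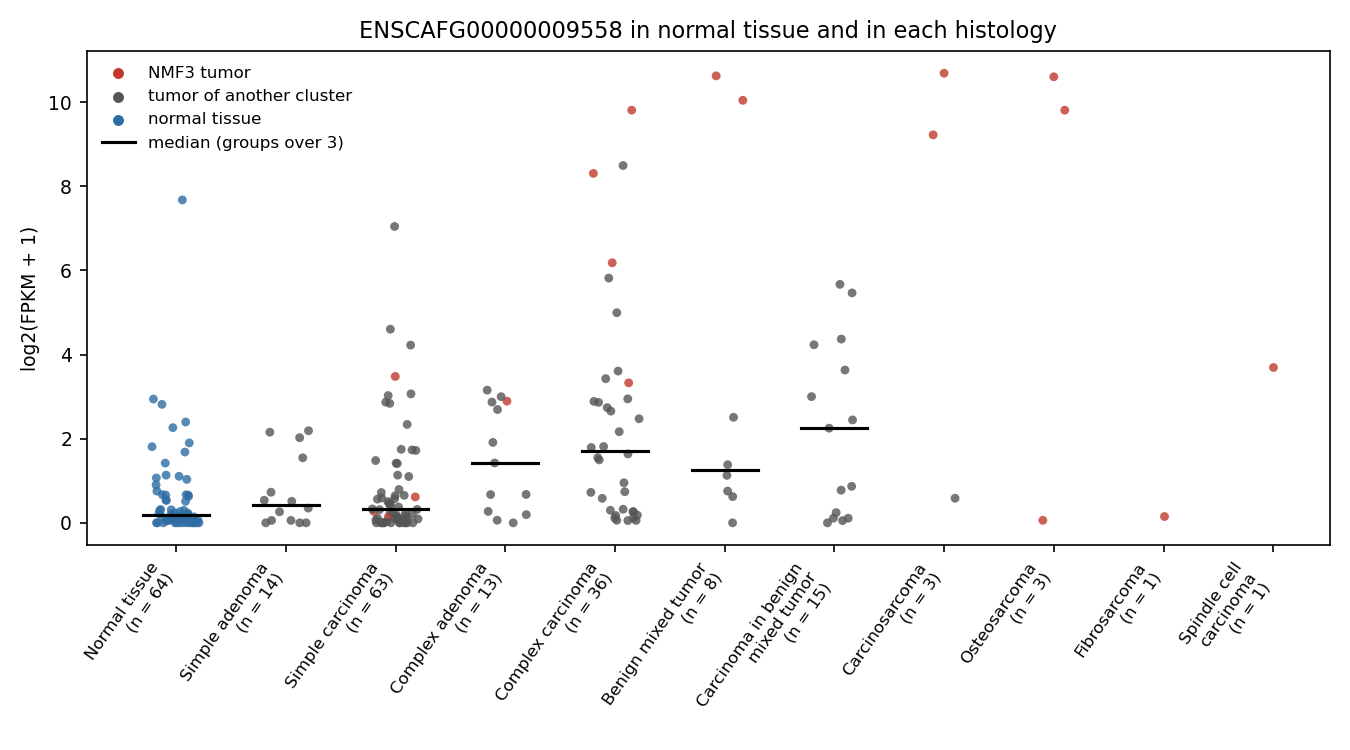
Level of ENSCAFG00000009558 as log2(FPKM + 1) on the vertical axis, in normal tissue and in each histology, with 1 point per library, red for NMF3 tumors, grey for tumors of other clusters and blue for normal tissue. Black lines are medians of groups of more than 3 libraries, and most points above a level of 8 are red, in carcinosarcomas, osteosarcomas, benign mixed tumors and complex carcinomas.

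By histology, the tumors above 100 FPKM were mostly complex tumors, mixed tumors, carcinosarcomas or osteosarcomas. Such histologies were also common among all tumors, with 49 complex, 23 mixed and 8 of rarer histologies against 77 simple. NMF3 held 5 complex, 2 mixed and 7 of the rarer ones against 4 simple, and its levels served to pick the gene. The histologies of its high tumors are therefore a description, and which cells held the transcript was not tested. Of the 10 tumors above 100 FPKM, 8 belonged to NMF3. They were the carcinosarcomas CMT-340 (1648 FPKM) and CMT-231 (596.4 FPKM), the osteosarcomas CMT-290 (1554 FPKM) and CMT-332 (895.8 FPKM), the benign mixed tumors CMT-695 (1579 FPKM) and CMT-102 (1054 FPKM), and the complex carcinomas CMT-301 (896.4 FPKM) and CMT-153 (315.4 FPKM). Both others belonged to NMF1. They were CMT-118, a complex carcinoma of grade 2 with 359.3 FPKM, and CMT-344, a solid simple carcinoma of grade 3 with 131.0 FPKM. In these 10 tumors 89.3% to 93.2% of the reads mapped (median 92%, against 91.6% in the other tumors). Their median of mapped reads was 65287208, against 68751266 in the other tumors, and CMT-695 had the fewest mapped reads of all tumors, 52007828. The part of depth in these levels was not tested. They came from 3 of 42 tumors removed in 2016, 6 of 98 in 2017 and 1 of 17 in 2018.

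Histology alone did not fix the level within NMF3. The third osteosarcoma, CMT-009, also of NMF3, had 0.0428 FPKM, the lowest value of the cluster. The third carcinosarcoma, CMT-577 of NMF2, had 0.499 FPKM. The only fibrosarcoma, CMT-112, had 0.116 FPKM, and the only spindle cell carcinoma, CMT-129, had 12.0 FPKM. So the 8 tumors of these rare histologies ran from the lowest to the highest value of NMF3.

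The remaining NMF3 tumors lay between. The complex carcinomas CMT-538 and CMT-440 had 71.6 FPKM and 9.03 FPKM, and the complex adenoma CMT-355 had 6.43 FPKM, so the 5 complex tumors of NMF3 had a median of 71.6 FPKM. The 4 simple carcinomas of NMF3 were low by comparison. CMT-210 had 10.2 FPKM, and CMT-306, CMT-109 and CMT-318 had 0.532, 0.207 and 0.0992 FPKM. All 4 were below the 3 highest complex carcinomas of that cluster, although CMT-210 was above CMT-440 and CMT-355.

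**Figure D2:**
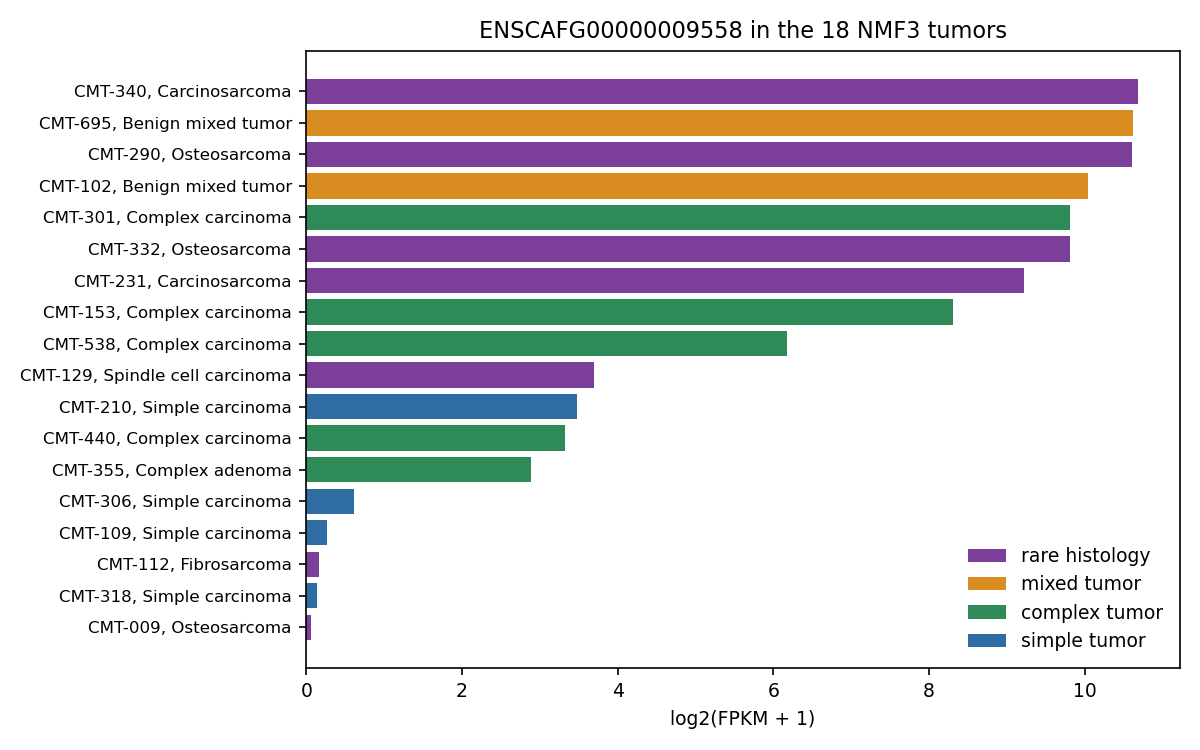
Level of ENSCAFG00000009558 in each of the 18 NMF3 tumors, ordered by level, as bars on a log2(FPKM + 1) axis coloured by histological family (purple rare, orange mixed, green complex, blue simple). The tumors spread from 0.0428 to 1648 FPKM, and the simple carcinomas sit at or below 10.2 FPKM.

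In NMF3 the medians rose with grade among malignant tumors, while the ranges overlapped, and neither grade nor class was tested there. The 7 tumors of grade 3 ran from 0.0428 to 1648 FPKM with a median of 596.4 FPKM. The 4 tumors of grade 2 ran from 0.532 to 1554 FPKM (median 11.1), the 4 of grade 1 from 0.116 to 71.6 FPKM (median 4.62), and the 3 benign ones had 6.43, 1054 and 1579 FPKM. All these ranges overlapped, and the benign mixed tumors stood beside the carcinosarcomas and osteosarcomas at the top. The 12 basal tumors of NMF3 had a median of 41.8 FPKM (0.0428 to 1648) and the 6 non-basal ones 303.3 FPKM (0.532 to 1054).

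The other clusters were low in the middle and differed in their highest tumors. The median was 0.498 FPKM in the 92 NMF1 tumors (0 to 359.3), 0.593 FPKM in the 35 NMF2 tumors (0 to 19.6), 0.105 FPKM in the 7 NMF4 tumors (0 to 4.45) and 0.450 FPKM in the 5 NMF5 tumors (0 to 3.07). Each of these 4 ranges contains the medians of the other 3. The 5 NMF3 tumors at or below 0.532 FPKM lay within the range of every other cluster.

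Whether the level goes with histology was tested in the 139 tumors outside NMF3, whose values did not serve to pick the gene. Complex and mixed tumors had higher medians than simple tumors, yet no contrast passed the threshold across all identifiers. The 73 simple tumors ran from 0 to 131.0 FPKM with a median of 0.257 FPKM, and 20 of them were above 1 FPKM. The 44 complex tumors ran from 0 to 359.3 FPKM with a median of 1.75 FPKM, and 23 were above 1 FPKM. The 21 mixed tumors ran from 0 to 49.9 FPKM with a median of 1.19 FPKM, and 11 were above 1 FPKM. The 3 ranges overlap from 0 upward, and complex and mixed tumors are alike in having more of their members above 1 FPKM than simple tumors.

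On the log2(FPKM + 1) scale, which understates changes of low values, complex tumors were above simple tumors by 0.86 (SE 0.29, 95% interval 0.28 to 1.43). With limma over 14508 identifiers this had an adjusted p of 0.0909 (Benjamini-Hochberg), at a background of 2.31% of identifiers called higher in complex tumors at an adjusted p under 0.05. The difference between mixed and simple tumors was 1.04 (SE 0.38, 95% interval 0.29 to 1.78) with an adjusted p of 0.207 in the same limma fit, at a background of 0.159% of identifiers called higher. Tested for this gene alone, without adjustment over identifiers, the 2 differences had permutation p-values of 0.00219 and 0.00387 (two-sided, 100000 resamples). Between mixed and complex tumors the difference was 0.18 (SE 0.40), with a 95% interval from -0.62 to 0.98 and a limma adjusted p of 0.846. That interval holds differences of either sign, so the 2 families were not shown to be equal.

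Complex tumors stood above simple tumors in each year of surgery, with permutation p-values that were not adjusted over years, contrasts or identifiers. The difference was 1.01 in 2016 (8 against 18 tumors, exact permutation p = 0.171), 0.74 in 2017 (30 against 46, permutation p = 0.0379) and 1.10 in 2018 (6 against 9, exact permutation p = 0.0362). Mixed tumors stood above simple tumors by 0.55 in 2016 (10 against 18, permutation p = 0.304) and by 1.56 in 2017 (10 against 46, permutation p = 0.00664). The year 2018 held 1 mixed tumor and gave no test. With the year as a covariate over all years, complex tumors stood above simple ones by 0.83 (limma adjusted p = 0.108). For mixed against simple tumors the difference was 1.13 (limma adjusted p = 0.185), and neither passed the threshold.

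Among the single histologies outside NMF3, the carcinoma in benign mixed tumor had the highest median. Its 15 tumors ran from 0 to 49.9 FPKM with a median of 3.76 FPKM, and 5 of them were above 10 FPKM (CMT-021, CMT-651, CMT-188, CMT-634 and CMT-523, with 49.9, 43.2, 19.6, 17.8 and 11.4 FPKM). The 6 benign mixed tumors outside NMF3 had a median of 0.937 FPKM and reached 4.69 FPKM, far below the 2 benign mixed tumors of NMF3. The 32 complex carcinomas had a median of 1.87 FPKM, and 4 were above 10 FPKM (CMT-118, CMT-377, CMT-217 and CMT-667, with 359.3, 55.4, 30.9 and 11.2 FPKM). The 12 complex adenomas had a median of 1.14 FPKM and reached 7.90 FPKM.

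The 3 simple subtypes with more than 1 tumor had medians below those of the complex and mixed histologies. The 14 simple adenomas had a median of 0.349 FPKM and reached 3.56 FPKM. The 40 tubulopapillary carcinomas had a median of 0.180 FPKM and reached 17.7 FPKM (CMT-471). The 17 solid carcinomas had a median of 0.418 FPKM, and besides CMT-344 the highest was CMT-247 with 23.3 FPKM. The only anaplastic carcinoma, CMT-193, had 0.127 FPKM. The only simple carcinoma of no stated type, CMT-414, had 2.32 FPKM, above the median of complex carcinomas. Of the 12 tumors above 10 FPKM outside NMF3, 9 were among the 65 complex or mixed tumors (13.8%) and 3 were simple. All of these single-histology ranges overlap, and differences between them were not tested.

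Grade, malignancy and class gave no difference that passed the threshold outside NMF3. The 67 tumors of grade 1 had a median of 0.651 FPKM (0 to 55.4), the 19 of grade 2 of 0.322 FPKM (0 to 359.3) and the 21 of grade 3 of 0.418 FPKM (0 to 131.0). Grade 3 was below grade 1 by a log2 difference of -0.14 (SE 0.43, 95% interval -0.98 to 0.71, limma adjusted p = 0.875), at a background of 9.97% of identifiers called lower. This sign turned to 0.55 when the histological family was a covariate (limma adjusted p = 0.458).

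The 32 benign tumors had a median of 0.595 FPKM and the remaining, malignant tumors of 0.490 FPKM, although all 12 tumors above 10 FPKM were malignant. The log2 difference, malignant minus benign, was 0.29 (SE 0.32, 95% interval -0.34 to 0.92, limma adjusted p = 0.759), with 0.0965% of identifiers called higher. The 25 basal tumors had a median of 0.127 FPKM (0 to 359.3) and the 114 non-basal tumors of 0.624 FPKM (0 to 131.0). The log2 difference, basal minus non-basal, was -0.35 (SE 0.35, 95% interval -1.04 to 0.33, limma adjusted p = 0.454), against 18.6% of identifiers called lower in basal tumors. The highest basal tumor was CMT-118, and without the highest tumor the difference was -0.67 (limma adjusted p = 0.1003). With histological family as a covariate it was -0.11 (limma adjusted p = 0.845).

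**Figure D3:**
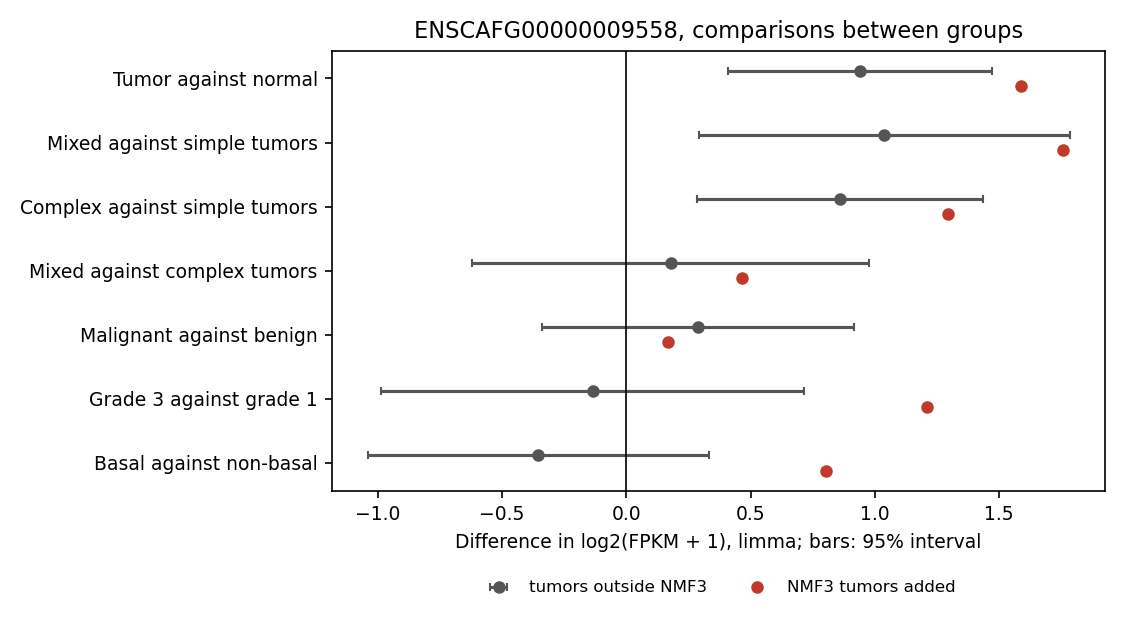
Differences of ENSCAFG00000009558 between groups on the log2(FPKM + 1) scale from limma, in grey for tumors outside NMF3 with their 95% intervals. Red points, without intervals, give the same differences with the NMF3 tumors added, which were used to pick the gene, and there the grade and basal contrasts lie on the other side of 0.

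Tumors were compared with normal mammary tissue of the same dogs, and the gene was higher in the tumors. Over all 64 normal tissues the level ran from 0 to 203.5 FPKM with a median of 0.145 FPKM, and 13 were listed at 0. The normal tissue of CMT-344 had 203.5 FPKM, the next highest, of CMT-278, had 6.69 FPKM, and without CMT-344 the mean was 0.689 ± 1.36 FPKM (SD, n = 63). In the 57 dogs whose tumor lay outside NMF3, the median was 0.935 FPKM in tumors and 0.145 FPKM in normal tissues. The tumor was higher in 38 dogs, lower in 16 and equal in 3.

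In these 57 dogs the log2 difference, tumor minus normal, was 0.94 (SE 0.27, 95% interval 0.41 to 1.47), with an adjusted p of 0.00236 by limma without pairing. Of all 14680 identifiers tested, 27.9% were called higher in tumors, so a call in this direction was common. Within dogs the mean difference was 0.94 ± 1.51 (SD, SE 0.20) and the median 0.42, and a sign-flip permutation test gave p = 2e-05 (two-sided, adjusted p over 4 tests 8e-05). The mean was 0.97 without CMT-344. The difference was 0.50 in dogs of 2016 (n = 13, permutation p = 0.0256), 1.16 in those of 2017 (n = 33, permutation p = 5.1e-04) and 0.82 in those of 2018 (n = 11, permutation p = 0.0833).

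The rise within dogs was small in simple tumors and larger in the other families. In 27 dogs with simple tumors the mean was 0.42 ± 1.21 (SD), and the tumor was higher in 14, lower in 10 and equal in 3. In 21 dogs with complex tumors it was 1.33 ± 1.70, with 17 higher and 4 lower. In 9 dogs with mixed tumors it was 1.58 ± 1.46, with 7 higher and 2 lower. These 3 groups overlap widely, and the difference between them was not tested within dogs.

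In the 7 NMF3 dogs with normal tissue the level was higher in every tumor. Levels in these tumors served to pick the gene, so the difference is a description. The tumors had a median of 596.4 FPKM and the normal tissues of 0.175 FPKM, and the log2 difference averaged 6.86 ± 2.86 (SD, range 2.66 to 9.94). The normal tissue of CMT-231 had 0.0350 FPKM, of CMT-290 0.587 FPKM, of CMT-301 1.09 FPKM and of CMT-340 6.04 FPKM. The normal tissues of CMT-210 and CMT-538 were listed at 0, and that of CMT-355 had 0.175 FPKM. Among all normal tissues only those of CMT-344 (203.5 FPKM) and CMT-278 (6.69 FPKM) were above that of CMT-340, the dog of the highest tumor. Of the 8 NMF3 tumors above 100 FPKM, CMT-695, CMT-102, CMT-332 and CMT-153 had no normal library.

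**Figure D4:**
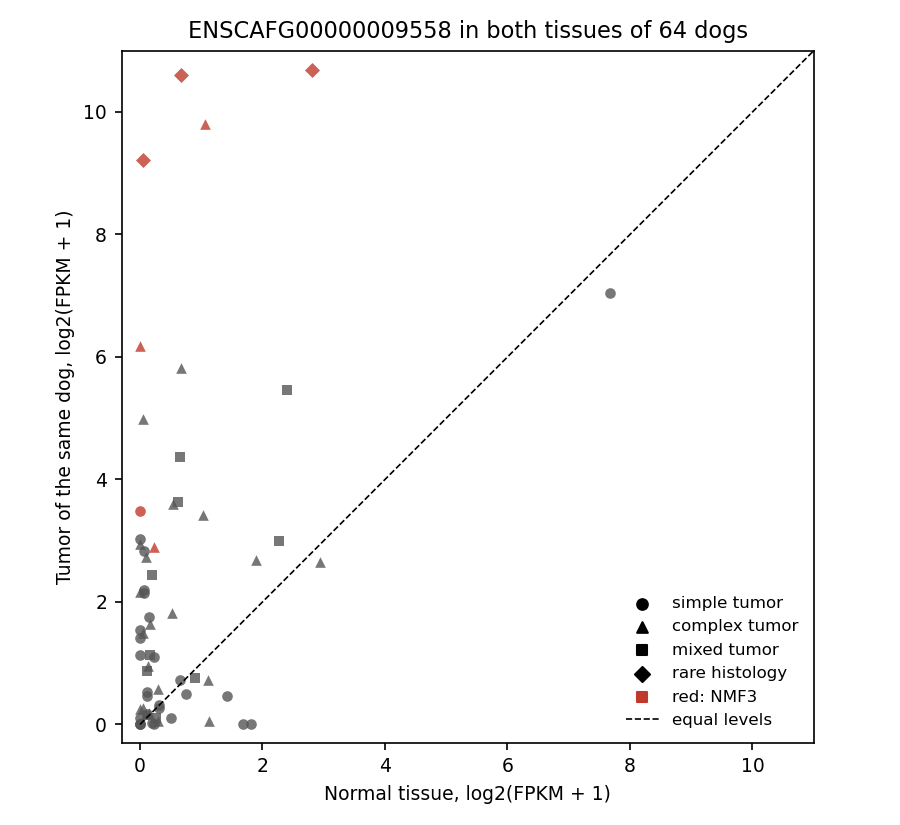
Tumor level against the level in normal tissue of the same dog for ENSCAFG00000009558, both as log2(FPKM + 1), for 64 dogs, with NMF3 dogs in red, shapes for histological family and a dashed line of equal levels. The 7 red points lie above the line, and CMT-344, with 203.5 FPKM in normal tissue and 131.0 FPKM in the tumor, is the point at the far right.

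The levels in both tissues of a dog were then compared across dogs. Over the 57 dogs Pearson's r of the log2 values was 0.49 (permutation p = 9.3e-04, adjusted over 4 tests 0.00186) and Spearman's rho was 0.15 (permutation p = 0.274, adjusted 0.274). Without the 2 dogs farthest from the median normal level, CMT-344 and CMT-278, r was 0.23 (permutation p = 0.0903) and rho 0.07 (permutation p = 0.604). The relation therefore rests on those dogs. Over 14712 identifiers the tumor and normal libraries of CMT-344 correlated at 0.925, the 8th highest of 64 dogs (median 0.865), and its part in the high normal value was not tested.

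Survival was examined in dogs with tumors outside NMF3 and a survival time in the clinical table. Of these, 31 died and 93 were censored, that is, without a recorded death during their follow-up. Tumors of dogs that died had a median of 0.298 FPKM (0 to 17.8) and those of the others 0.563 FPKM (0 to 359.3), with overlapping ranges. The hazard ratio in a Cox model was 0.725 per log2 unit (95% interval 0.521 to 1.01, permutation p = 0.0647, adjusted over 4 tests 0.0863), which did not pass the threshold. With grade 3 as a stratum it was 0.7495 (permutation p = 0.0784). In NMF3, 8 dogs died and 9 were alive or lost to follow-up by the clinical table. It gives no survival time for CMT-301, although the sample labels do. By the clinical table, the dogs of the carcinosarcomas CMT-340 and CMT-231, the osteosarcoma CMT-332 and the complex carcinoma CMT-153 died during follow-up. So did the dogs of CMT-210, CMT-440 and the 2 lowest tumors of that cluster, CMT-318 and CMT-009. Among the 4 highest, the dogs of the osteosarcoma CMT-290 and the benign mixed tumor CMT-695 were followed for only 11 and 8 days without a death. Such short follow-up does not show survival, and the sample labels give longer times for these 2 dogs. These labels also give longer times for other NMF3 dogs, CMT-340 among them, so the sources differ. In the clinical table the dog of the benign mixed tumor CMT-102 was followed for 990 days without a death, while the labels give a shorter time.

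The pattern over all tumors was compared with that of 13471 identifiers with a mean of at least 1 FPKM, by Spearman's rho over the tumors of the clinical table. Both values of a point come from the same library, and the names of these identifiers are not analysed here. The most alike was ENSCAFG00000009459, with rho 0.71 over all tumors, 0.75 over the 139 outside NMF3, where it also ranked highest, and 0.39 over the 64 normal tissues. Its median was 5.10 FPKM in simple, 26.5 FPKM in complex and 15.9 FPKM in mixed tumors outside NMF3, 27.1 FPKM in NMF3 and 5.68 FPKM in normal tissue. Unlike ENSCAFG00000009558, its median in NMF3 was thus close to that in complex tumors of the other clusters.

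Identifiers picked for likeness over these tumors got no test. On the log2 scale ENSCAFG00000009459 differed by 1.57 between complex and simple tumors outside NMF3 and by 1.22 between tumors and normal tissue. ENSCAFG00000011252 followed with rho 0.69 over all tumors and 0.63 outside NMF3, where it ranked 10th. Its corresponding log2 differences were 0.55 and 0.04, with medians of 1.19 FPKM in simple, 2.14 FPKM in complex and 2.22 FPKM in mixed tumors and 6.47 FPKM in NMF3. The most opposite were ENSCAFG00000001211 (rho -0.49, outside NMF3 -0.45) and ENSCAFG00000009305 (rho -0.48, outside NMF3 -0.43). Their NMF3 medians of 15.2 and 4.88 FPKM were below their medians of 35.5 and 21.7 FPKM in simple tumors. These opposite relations were weaker than the alike ones in both sets of tumors.

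**Figure D5:**
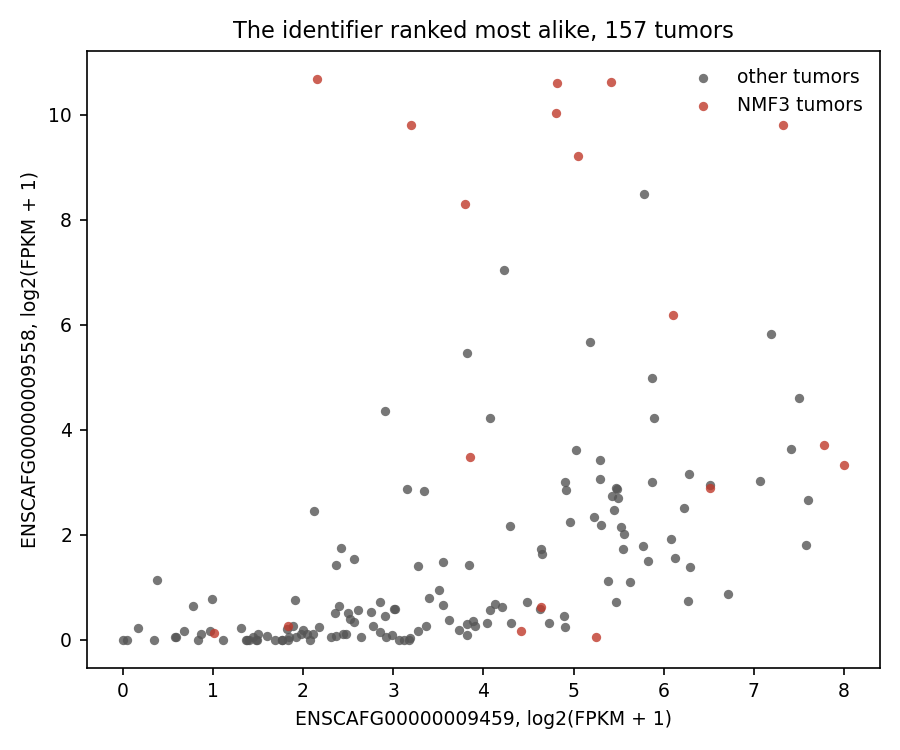
Level of ENSCAFG00000009558 on the vertical axis against that of ENSCAFG00000009459, the most alike identifier (Spearman's rho 0.71), both as log2(FPKM + 1), with 1 point per tumor and NMF3 tumors in red. The NMF3 tumors with the highest levels of ENSCAFG00000009558 lie above the trend of the other tumors.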

How the data were processed

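Poly(A)-enriched RNA of 158 CMTs and 64 normal tissues was sequenced. The authors deposited FPKM values per Ensembl identifier, and the submitters' processing notes name FastQC 0.10.1, TopHat2 2.0.9, Bowtie2, Cufflinks 2.1.1 and the build CanFam3.1. The depth behind a single value is unknown. The clinical table gave histology, grade, cluster and survival for 157 tumors. Its call of malignancy differs from the sample labels for 9 tumors. No names were found for identifiers, since 0 of 43286 RefSeq genes of the reference table carry an Ensembl identifier.

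Here values were analysed as log2(FPKM + 1). Identifiers with a mean of at least 0.5 FPKM were fitted with limma 3.58.1 (R 4.3.3, intensity trend, Benjamini-Hochberg), called at an adjusted p under 0.05. NMF3 tumors were left out of these comparisons and added only as an alternative. Values within dogs, correlations and Cox models (lifelines 0.30.3) were tested by permutation with 100000 resamples, or exactly in groups under 10. Other identifiers were named by rule, the 2 with the highest and 2 with the lowest Spearman's rho. The gene and the comparisons were chosen with earlier results of these data known.

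Tumor and normal libraries are paired by dog in the labels. Their deviations from the tissue means correlated at a mean of 0.20 (43 of 57 dogs above 0.1), against -0.00333 between different dogs. On simulated data for mixed against simple tumors (14346 identifiers), limma recovered 90 of 100 changes of 1 and 99 of 100 changes of 2 on the log2 scale, with 6 false calls. For complex against simple tumors (14357 identifiers) it recovered 98 of 100 and 100 of 100, with 12 false calls. Changes were put only into identifiers with a mean above 2 and an SD below 2 on the log2 scale, with normally distributed noise. ENSCAFG00000009558 is lower, with a median of 0.499 FPKM in tumors outside NMF3, so these rates do not apply to it.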

Additional observations from a re-analysis of the deposited data

Results flagged for a closer look

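Dixon's criterion for a value far from the rest of a small group was applied to ENSCAFG00000009558 in 11 groups and was met in 4. In 3 of these, all in NMF3, an uneven level is what the gene was selected on, so the values are a description and the criterion is no test there. CMT-210 had 10.2 FPKM among the 4 simple tumors of NMF3, where the next value was 0.532 FPKM. CMT-538, a complex carcinoma, had 71.6 FPKM among the 4 grade 1 tumors of NMF3, where the next was 9.03 FPKM. CMT-290, an osteosarcoma, had 1554 FPKM among the 4 grade 2 tumors of NMF3, where the next was 12.0 FPKM. Outside NMF3, CMT-158 had 4.69 FPKM among the 6 benign mixed tumors, where the next was 1.60 FPKM. The criterion picks out about 1 in 20 groups by chance if values are normally distributed. It was applied to untransformed FPKM, which are skewed, so that rate need not hold here. The tumor of CMT-351 has no line in the clinical table and entered no comparison. Its level was 0.974 FPKM, above the median of 0.145 FPKM in normal tissue.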

How the results depend on the processing

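Of 79 alternatives over 10 results, 68 kept the direction and the side of the threshold. Some could not change the estimate. The labels give the same histological family for every tumor. CMT-118, the highest tumor, is in neither group of the mixed against simple and grade 3 against grade 1 contrasts. The count also sets limma adjusted p-values and unadjusted permutation p-values against the same threshold. Values with NMF3 tumors added rest on the tumors on which the gene was selected, so they are a description and support no call. Complex tumors passed the threshold against simple ones with a pseudocount of 0.1 (1.56, limma adjusted p = 0.0446, the lowest without NMF3 tumors, the highest being 0.151) and when the gene was tested alone (0.86), as did mixed tumors when tested alone (1.04). With NMF3 tumors added the complex and simple difference was 1.29. The mixed and simple difference otherwise ran from 1.02 to 1.72 without NMF3 tumors, with limma adjusted p-values from 0.135 to 0.231, and was 1.76 with them. Grade 3 turned above grade 1 with NMF3 tumors added (1.21), in simple tumors only (0.55) and with histological family as a covariate (0.55). Basal tumors turned above non-basal ones with NMF3 tumors added (0.80). The log hazard ratio was -0.32 as reported and passed the threshold with a pseudocount of 0.1 (-0.18, permutation p = 0.0341). It did not pass with the follow-up of the sample labels (-0.23, 139 dogs, 21 deaths, permutation p = 0.213). Nor did it pass in malignant tumors only (-0.29, permutation p = 0.109), and it turned to 0.051 with NMF3 dogs added. The correlation between both tissues fell to 0.23 without 2 dogs. The causes were not tested beyond these constructions. Tumors stayed above normal tissue under all 8 alternatives (0.93 to 1.71), and with the dog as a replicate block, which pairs the tissues, the difference was 0.94 (SE 0.20, limma adjusted p = 5.99e-05). In that block fit 31.6% of identifiers were called higher in tumors, so such a call was common there too. Alternatives with simple tumors only, histological family as a covariate, single dogs or the highest tumor left out, and NMF3 tumors added to the block were chosen after seeing the data. The share of identifiers called higher in mixed than in simple tumors ran from 0.0345% (pseudocount 0.1) to 0.345% (malignant tumors only), against 0.159% as reported. Low values limit precision, since a change below 1 FPKM is compressed by the pseudocount.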
